A study of Rattus norvegicus with 29 samples.

Results

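Ribosome biogenesis was followed through 34 listed nucleolar and ribosome assembly genes in blood mononuclear cells of 29 male Wistar rats. The genes were chosen by name from the pathway. They were matched to the array's probes by the listed symbol or a stated older name (16 genes) or through another older name, accession or gene number (15 genes), and their Cy5 signal had to be well above background on at least 4 arrays. This gave 31 measured genes among 24249 genes tested. No probe was matched to Rrp12, Nop2 or Tsr1, and all 31 measured genes were well above background and unsaturated on all 29 arrays, so no listed gene was lost to the filter on dim probes. Control rats ate standard chow. Cafeteria rats were offered a fat-rich, energy-dense diet beside chow for 4 months from 2 months of age, a model of diet-induced obesity. At 6 months each diet was split into rats eating freely (fed), rats without food for 14 h (fasted), and rats given 6 h of free access to food after such a fast (refed). The control fed group had 4 rats and every other group 5, with 1 rat per array.

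Ribosomes are built in the nucleolus. RNA polymerase I transcribes a long precursor ribosomal RNA, small nucleolar ribonucleoproteins (snoRNPs) modify it, and assembly factors fold, cut and package it into the small and the large subunit. The process consumes much of a growing cell's energy, is driven by nutrient signalling and by the transcription factor MYC, and is low in resting blood lymphocytes, which raise it when they are activated. The measured genes comprised 3 subunits of RNA polymerase I, 5 nucleolar scaffold proteins and regulators, 4 genes of the box C/D snoRNPs (which guide methylation of ribosomal RNA) and 4 of the box H/ACA snoRNPs (which guide pseudouridine formation), 5 of 7 listed factors of small subunit assembly and 10 of 11 of large subunit assembly.

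Each value below is a log2 ratio of the rat's own RNA (Cy5) over a reference pooled from the samples (Cy3), so 0 means the level of the pool. A change is a difference of group means of this ratio, given ± its standard error, and a gene was called when limma's moderated test, adjusted by Benjamini-Hochberg over all 24249 genes, gave a p under 0.05. Spots well above background made up 53.3% to 66.7% of an array and the median Cy5 signal was 103.2 to 154.2 units. Markers of T cells (15 of 16 listed), B cells (9 of 12) and monocytes (12 of 14) passed the filter. Platelet markers passed too (18 of 23) and differed widely between arrays. Their mean log2 ratio ranged from 0.39 to 0.73 in control fasted and from -1.14 to -0.20 in control refed rats, and 17 of the 18 were called lower in control refed than in control fasted rats. In such bulk samples, fewer cells of a type and less RNA per cell cannot be told apart.

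Refeeding control rats after the fast raised 3 of the 31 genes, and no other comparison between feeding states or diets called any. Ddx18, an RNA helicase of large subunit assembly, rose by 0.27 ± 0.064 on the log2 scale against control fasted rats (1.21-fold, adjusted p = 0.0064). Heatr1, a factor of small subunit assembly that also aids transcription by RNA polymerase I, rose by 0.21 ± 0.061 (1.16-fold, adjusted p = 0.028). Nop56, a core protein of the box C/D snoRNPs, rose by 0.18 ± 0.058 (1.14-fold, adjusted p = 0.047). Of the 31 genes 9.68% were thus called higher. Over all genes, 3.3% were called higher and 9.31% in either direction, so a count of 3 is above the first share and near the second.

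Ddx18 stood at -0.37, -0.15, -0.42, -0.19 and -0.32 in the 5 control fasted rats and at -0.07, 0.13, -0.03, 0.03 and -0.14 in the 5 control refed rats. All refed rats lay above all fasted rats. Heatr1 was -0.17, 0.11, -0.21, 0.00 and -0.19 in control fasted and 0.17, 0.07, 0.13, 0.20 and 0.04 in control refed rats, and the groups overlapped through fasted rat 5. Nop56 was -0.09, -0.05, -0.13, 0.01 and -0.02 in control fasted and 0.21, 0.17, 0.16, -0.01 and 0.11 in control refed rats, overlapping through refed rat 12. Nop16, a large subunit factor, did not overlap between these groups either but was not called (0.17 ± 0.060, adjusted p = 0.068). Of all genes, 4.09% lay wholly higher in refed rats.

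The call on Ddx18 held on leaving out any 1 of the 29 arrays (adjusted p 0.0053 to 0.028), but was lost where the ratios were centred on the array median in place of loess (0.20, adjusted p = 0.93) and with Cy5 alone (0.22, adjusted p = 0.13). Heatr1 and Nop56 lost their calls in the same fits, Heatr1 at 0.16 (adjusted p = 0.93) and 0.14 (0.24) and Nop56 at 0.051 (1.00) and 0.15 (0.20). The call on Heatr1 was lost on leaving out 1 of 6 control arrays (fasted rats 2, 8 and 14 and refed rats 3, 9 and 12), and that on Nop56 on leaving out 1 of 22 arrays, to an adjusted p of up to 0.12. Nop56 was also not called with the scanner's processed signals (adjusted p = 0.058), with no filter on dim probes (0.058) or with the mean of its probes (0.14, adjusted p = 0.15). Leaving out fasted rat 8 or 14 or refed rat 3 or 9 left 1 gene called, against 3. With the platelet marker mean of each array as a covariate, none of the 31 was called (0.0165% of all genes were), and Ddx18 differed by 0.23 (adjusted p = 0.26), Heatr1 by 0.18 (0.35) and Nop56 by 0.056 (0.79). The platelet means of these groups do not overlap (0.39 to 0.73 in control fasted and -1.14 to -0.20 in control refed rats). Covariate and refeeding are thus hard to separate in this fit, and a call lost there does not show what part platelet content had.

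The promoters of the called genes are shown because the group is a known target of MYC, which binds the E-box motif CACGTG (palindromic, so alike on both strands). The sequences are the 100 bases before the RefSeq transcription start on the GRCr8 build, in lower case with any E-box in capitals.
Ddx18 (chr13:35295973-35296072, minus strand): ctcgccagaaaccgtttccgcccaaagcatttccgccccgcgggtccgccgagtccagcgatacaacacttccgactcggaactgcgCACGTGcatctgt
Heatr1 (chr17:62785187-62785286, minus strand): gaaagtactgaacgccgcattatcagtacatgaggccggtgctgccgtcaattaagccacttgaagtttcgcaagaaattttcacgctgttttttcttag
Nop56 (chr3:137930079-137930178, plus strand): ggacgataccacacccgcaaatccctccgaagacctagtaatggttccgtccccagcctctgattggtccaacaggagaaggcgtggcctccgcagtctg
The Ddx18 E-box starts 13 bases before the start site, and neither Heatr1 nor Nop56 held this motif in the 300 bases searched (250 before and 50 after the start).

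Of the 31 listed genes with a RefSeq promoter window, 12 (38.7%) held CACGTG, against 6.42% of all 33469 windows of this length. Those windows were not matched to the listed genes for base composition or kind of gene, so these shares do not single out this motif. Wdr43, Bop1 and Rrs1 had no entry. Among the measured genes the motif was found in 9 of 28. The 5 whose motif begins within the 50 bases before the start are printed, with the motif in capitals, to show the letters around it.
Ddx18 (chr13:35295968-35295997, minus strand): ctcggaactgcgCACGTGcatctgtcgctc
Nle1 (chr10:68340173-68340202, minus strand): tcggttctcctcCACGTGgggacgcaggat
Gnl3 (chr16:6219790-6219819, minus strand): agttccagttcgCACGTGgcgcccgagacg
Pes1 (chr14:83074284-83074313, plus strand): ccctaagcggggCACGTGcggtaggaagta
Mybbp1a (chr10:57555445-57555474, plus strand): gtctttcgagccCACGTGtttggttcagca
The other holders were Dkc1 and Utp20, with the motif farther upstream, and Ebna1bp2 and Fbl, with it after the start. Between control refed and control fasted rats, the 9 genes with the motif had a median difference of 0.14 and 1 call, and the 19 without it a median of 0.099 and 2 calls. Between control refed and control fed rats the medians were 0.11 and 0.12, with no call in either set. A motif match is a description of the sequence and does not show that a factor binds there. Another short motif, CGGAAG (or CTTCCG on the other strand), was in 15 of the 31 windows (48.4%) against 16.6% of all windows, and TATAAA (or TTTATA) in 2 (6.45%) against 14.2%.

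Over all 31 genes, the called ones included, control refed rats had the highest mean of any group with loess. This ranking depended on the normalisation. Under median centring 29 of the 31 genes were higher in cafeteria refed than in control refed rats, with a median of 0.17 (72.5% of all genes were above 0). The values that follow are those with loess. The mean log2 ratio over the genes was 0.045 ± 0.044 (SD, n = 5) in control refed rats, and their arrays read 0.075, 0.063, 0.053, -0.032 and 0.067. The control fasted mean was -0.035 ± 0.043 (SD, n = 5), and the control fed mean -0.074 ± 0.051 (SD, n = 4). The cafeteria groups lay between, at -0.033 ± 0.073 fed, -0.023 ± 0.022 fasted and -0.032 ± 0.058 refed (SD, n = 5 each). The control refed array of rat 12 lay within the other groups' range, and the other 4 control refed arrays lay above every other array.

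**Figure D1:**
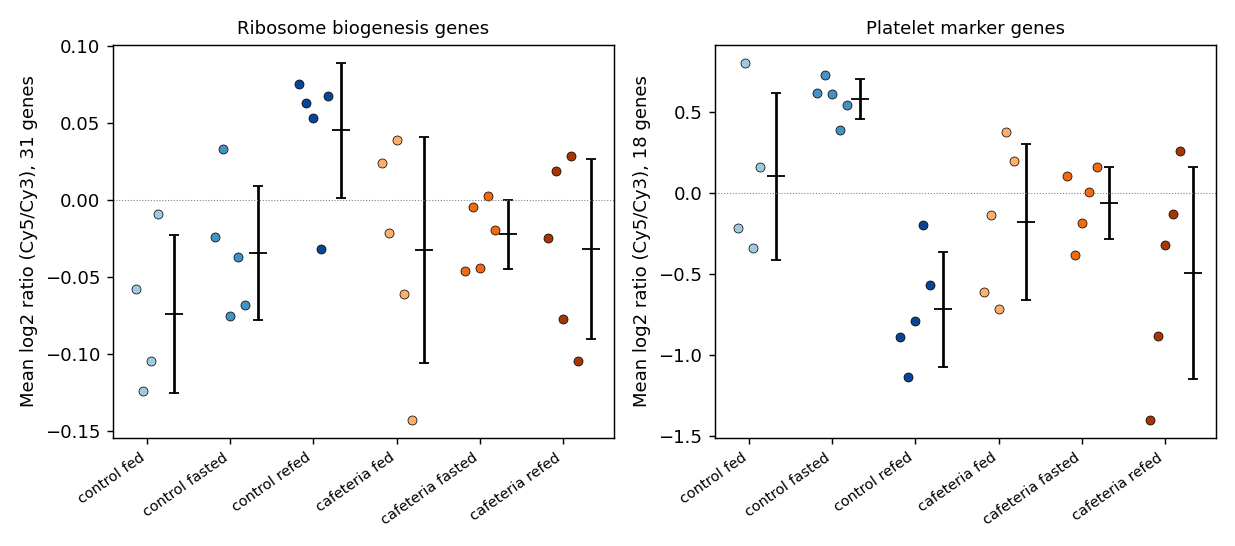
Mean log2 ratio (Cy5 over Cy3) of the 31 ribosome biogenesis genes (left) and of 18 platelet markers (right) on each array, by group; points are arrays, and bars are the group mean ± SD. With loess, control refed rats have the highest mean of the 31 genes (0.045) and the lowest of the platelet markers (-0.72). The left axis spans a far smaller range than the right.

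The platelet markers moved with this mean. Over the 29 arrays the mean of the 31 genes and the platelet mean correlated at Pearson's r = -0.55 and Spearman's rho = -0.53, as a description of arrays that share one reference pool, and at -0.50 over deviations from the group means. It was -0.57 without the 2 arrays farthest from the platelet median, and -0.50 and -0.66 within the 2 runs of the image extraction software. Of the 31 genes, 27 correlated below 0 with the platelet mean, against 58.84% of all genes. The largest of these correlations were for Ddx21 (-0.67), Nop16 (-0.66), Polr1c (-0.61), Ddx18 (-0.55) and Nop56 (-0.54). The part of platelet content in the differences was not tested beyond the covariate, which is hard to separate from refeeding in control rats.

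All 31 genes were higher in control refed than in control fed rats, by a median of 0.12 (1.09-fold), against 52.8% of all genes above 0. None was called by limma (0% of all genes were), and 8 of 31 had an unadjusted p under 0.05, against 1416 of all 24249 genes. Under median centring, 19 of 31 were above 0 with a median of 0.021 (44.7% of all genes). With the platelet covariate 26 were, with a median of 0.056. Of 10 markers of NK and cytotoxic cells 9 were above 0 in this comparison, with a median of 0.40, and of 15 T cell markers 13, with a median of 0.077, none of them called. Their part in the result was not tested. The smallest p was that of Nop56 (0.19 ± 0.062, adjusted p = 0.41), followed by Heatr1 (0.16 ± 0.065, adjusted p = 0.61) and Polr1a, the largest subunit of RNA polymerase I (0.15 ± 0.065, adjusted p = 0.69). Heatr1 read -0.04, -0.00, -0.12 and -0.01 in the control fed rats, all below the refed values given above, a separation that 0.936% of all genes showed. The largest difference was that of Ncl, nucleolin (0.27 ± 0.12, adjusted p = 0.78), whose fed values ran from -0.72 to -0.12.

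Against control fasted rats, 26 of the 31 genes were higher in control refed rats, with a median of 0.095 (53.2% of all genes were above 0, with a median of 0.010). Centring on the array median brought this to 16 of 31 with a median of 0.0082 (45.8% of all genes), and the 16 genes matched by the listed symbol or its stated older name alone had a median of 0.046. Within the slides that held both groups (3) the median was 0.074 to 0.15, and within the 2 extraction runs it was 0.086 and 0.11. The 5 genes at or below 0 were Gnl3 (-0.22), Wdr43 (-0.18), Npm1 (-0.037), Bop1 (-0.030) and Ebna1bp2 (-0.0048). The polymerase subunits Polr1a, Polr1b and Polr1c had a median of 0.15 (3 of 3 above 0), the box H/ACA genes Dkc1, Nhp2, Nop10 and Gar1 0.11 (4 of 4) and the box C/D genes Fbl, Nop56, Nop58 and Rrp9 0.11 (4 of 4). The scaffold proteins and regulators Ncl, Npm1, Nolc1, Mybbp1a and Gnl3 had a median of 0.037 (3 of 5). The small subunit factors Heatr1, Utp20, Nop14, Nob1 and Wdr43 had a median of 0.12 (4 of 5), and the large subunit factors Pes1, Bop1, Wdr12, Ebna1bp2, Rrs1, Ddx18, Ddx21, Nop16, Nle1 and Rrp1b a median of 0.11 (8 of 10). Of the 7 genes with more than 1 probe, Rrp1b had probes that differed in sign (0.12 and -0.13). Among cell markers, 14 of 15 of T cells were above 0 here (median 0.15) and 8 of 10 of NK and cytotoxic cells (0.24). Above 0 were 0 of 11 erythroid (-0.23), 0 of 7 plasma cell (-0.32) and 3 of 15 dividing cell markers (-0.15, 1 called lower). Monocyte (7 of 12), neutrophil (6 of 10) and B cell markers (5 of 9) lay on both sides. The part of these cells in the differences was not tested.

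**Figure D2:**
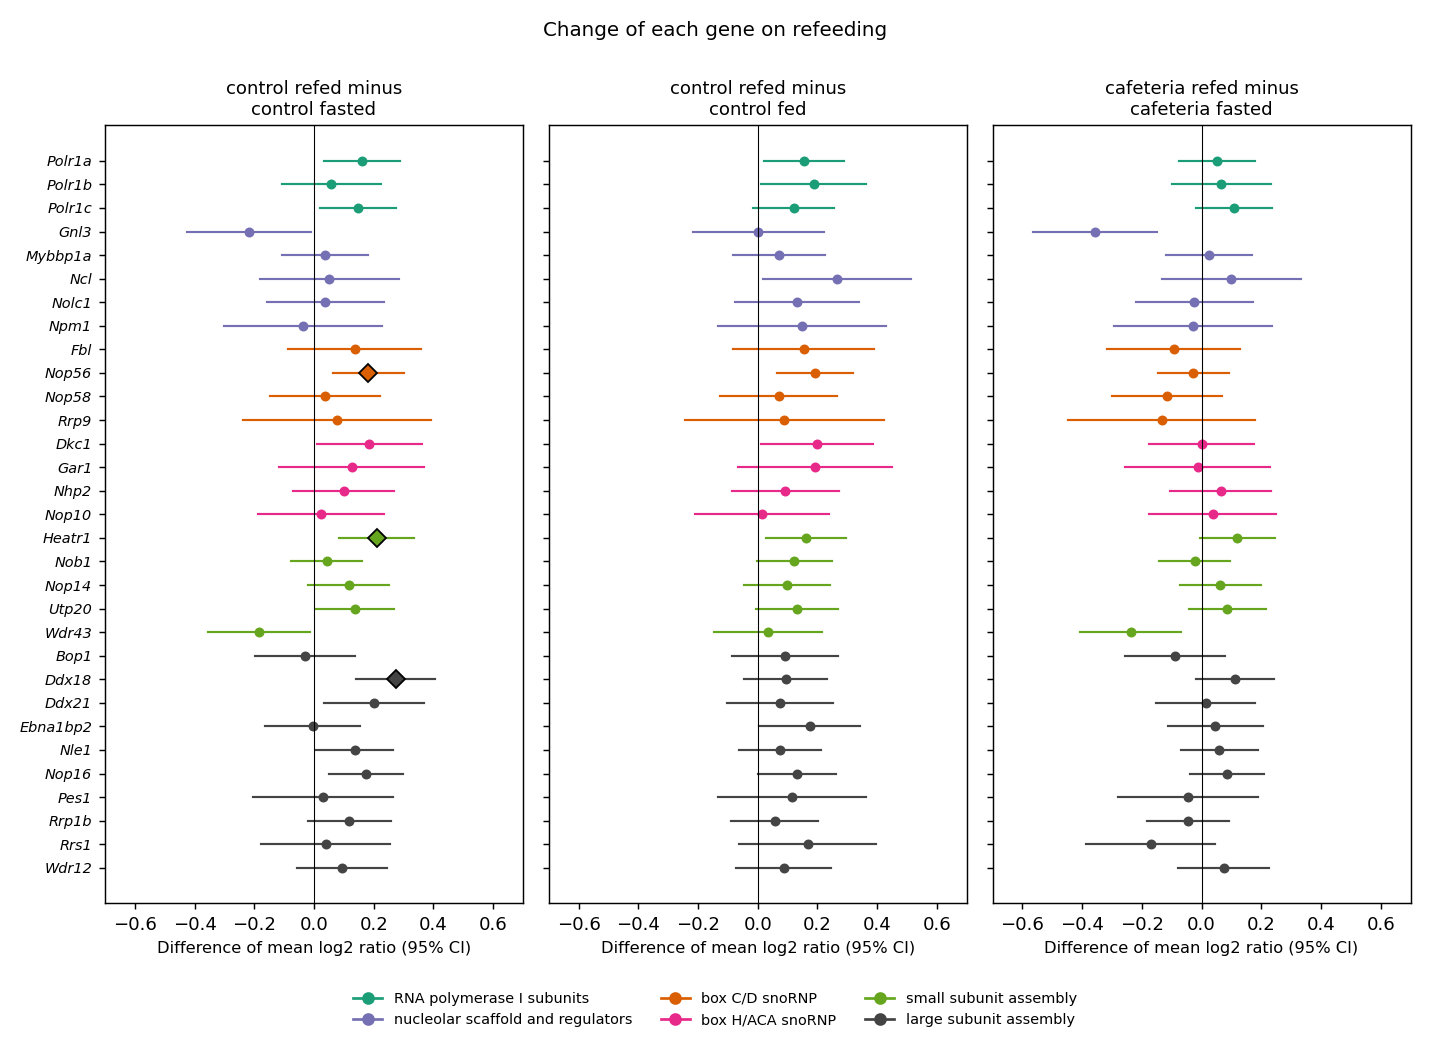
Difference of group means of the log2 ratio for each of the 31 genes, with 95% confidence intervals, in 3 comparisons of refed rats; colours give the role, and diamonds with a black edge are called genes. In control rats the points lie mostly right of 0 and Ddx18, Heatr1 and Nop56 are called, whereas in cafeteria rats they lie on both sides, with Gnl3 and Wdr43 farthest left.

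In cafeteria rats the same refeeding called none of the 31 genes (1.39% of all genes were called). An unadjusted p under 0.05 was found for 2 of the 31, against 3216 of all 24249 genes. The median difference was 0.014, with 17 of 31 genes above 0 (48.8% of all genes). It was 0.12 with 24 above 0 under median centring, where 61.1% of all genes were above 0. Gnl3, nucleostemin, a GTPase of the nucleolus, had the smallest p. After fasting, the cafeteria rats read 0.33, 0.40, 0.22, 0.51 and 0.38, and after refeeding 0.22, -0.08, 0.06, 0.13 and -0.26. No refed rat reached a fasted rat (the ranges of 1.32% of all genes lay wholly lower), but the difference of -0.36 ± 0.10 was not called (adjusted p = 0.075). Wdr43, of the small subunit processome, differed by -0.24 ± 0.083 (adjusted p = 0.17), and Heatr1 by 0.12 ± 0.061 (adjusted p = 0.40), with all refed above all fasted rats, as for 1.98% of all genes. Among cell markers, 0 of 18 of platelets (median -0.43) and 0 of 10 of NK and cytotoxic cells (-0.28) were above 0 here. Erythroid (9 of 11, 0.40) and B cell markers (8 of 9, 0.20) lay mostly above 0. T cell (9 of 15), monocyte (7 of 12), neutrophil (6 of 10), plasma cell (3 of 7) and dividing cell markers (5 of 15) lay on both sides. The part of these cells in the differences of the 31 genes was not tested.

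An interaction term tested whether the response to refeeding differed between the diets. It called none of the 31 genes or any other gene (0%). For 1 of the 31 the unadjusted p was under 0.05, as it was for 1814 of all 24249 genes. The smallest p was that of Nop56, whose response was lower by 0.21 ± 0.083 in cafeteria rats (adjusted p = 0.64), followed by Ddx18 (-0.16 ± 0.090, adjusted p = 0.71) and Rrp1b (-0.16 ± 0.095, adjusted p = 0.72). The 95% intervals of 28 of the 31 genes lay within 0.5 on either side of 0. For Nop56 that interval ran from -0.38 to -0.040. Calls in control rats and none in cafeteria rats thus do not show that the diets differ for these genes. Of the 31, 5 had an interaction above 0 (47.8% of all genes), with a median of -0.077, which turned to 0.12 with 27 above 0 under median centring. There 69.1% of all genes were above 0, and 18 of the 31 lay above the median of all genes (0.082).

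Fasting called none of the 31 genes in either diet. In control rats 0.177% of all genes were called, and 3 of the 31 had an unadjusted p under 0.05, against 2807 of all 24249. Ddx18 was lower by 0.18 ± 0.068 in fasted rats (adjusted p = 0.28). Wdr43 was 0.15, -0.00, 0.25 and 0.21 in control fed and 0.34, 0.39, 0.29, 0.26 and 0.57 in control fasted rats, with no overlap, at a difference of 0.22 ± 0.088 (adjusted p = 0.32). The ranges of 2.33% of all genes lay wholly higher. Ebna1bp2, a partner of nucleolar large subunit factors, differed by 0.18 ± 0.083 (adjusted p = 0.40). The median over the 31 was 0.012, with 18 above 0 (51.5% of all genes).

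In cafeteria rats 0.845% of all genes were called on fasting. An unadjusted p under 0.05 was found for 4 of the 31, against 2559 of all 24249 genes. Gnl3 was 0.21, -0.08, -0.01, -0.02 and -0.02 in fed rats, all below the fasted values given above (1.36% of all genes lay wholly higher in fasted rats), and differed by 0.35 ± 0.10 (adjusted p = 0.096). Wdr43 was 0.36, 0.00, 0.20, 0.24 and 0.07 in fed and 0.22, 0.59, 0.34, 0.59 and 0.47 in fasted rats (0.27 ± 0.083, adjusted p = 0.14). Heatr1 was lower by 0.17 ± 0.061 in fasted rats (adjusted p = 0.26). Gnl3 and Wdr43 were higher in fasted and lower in refed rats in each diet, though neither was called. Fasted rats serve in both comparisons, so the directions share those arrays. Of 14 immediate early genes, listed as markers of handling, 13 were above 0 on fasting (median 0.47) and 1 on refeeding (-0.34) in cafeteria rats. On that refeeding 3 were called lower (0.639% of all genes were). In control rats 11 of 14 (0.12) and 3 of 14 (-0.19) were above 0. The part of handling in these differences was not tested. The median over the 31 was -0.022 with 12 above 0 (51.8% of all genes), and 0.028 with 19 above 0 under median centring (54.7% of all genes). Extraction runs were uneven here. Run 1 held 4 cafeteria fed arrays and 1 cafeteria fasted array, and run 2 held 1 and 4. With the run as a block the median was 0.0039 with 17 above 0 (52.2% of all genes), and 0.0907% of all genes were called. The interaction of diet with fasting called none (0% of all genes), with 11 of 31 above 0 (49.6% of all genes). For 1 of the 31 the unadjusted p was under 0.05, as it was for 775 of all 24249 genes. The smallest p were those of Ebna1bp2 (-0.24 ± 0.11), Ncl (-0.25 ± 0.17) and Heatr1 (-0.12 ± 0.089), each with an adjusted p of 1.00. Control fasted arrays fell 4 in run 1 and 1 in run 2, the reverse of cafeteria fasted arrays. With the run as a block, 19 of the 31 interactions were above 0 (52.6% of all genes), with a median of 0.023 in place of -0.024. The direction of this interaction thus depended on the run block, and the part of the runs was not tested further.

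**Figure D3:**
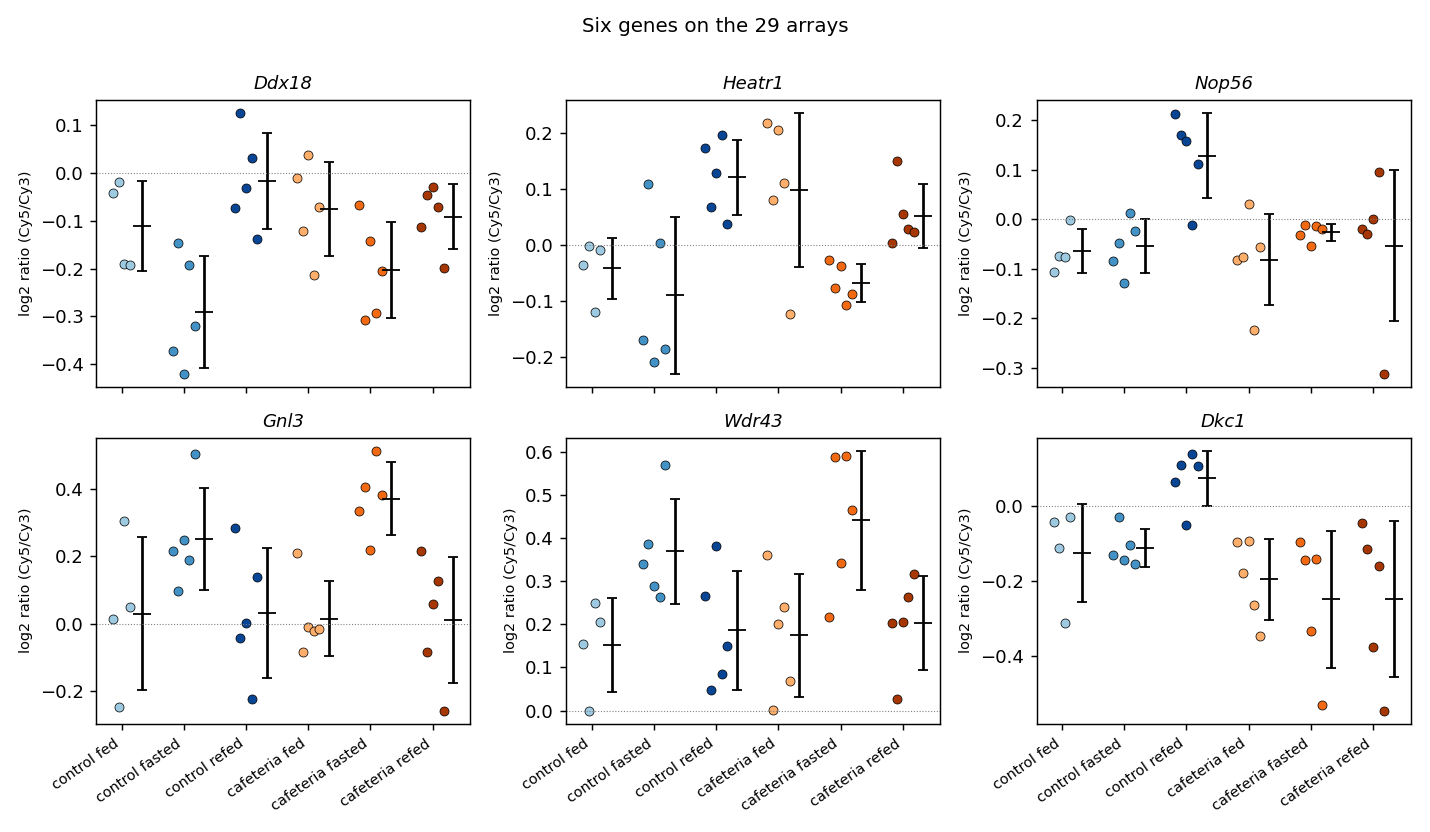
Log2 ratio (Cy5 over Cy3) of 6 genes on each of the 29 arrays by group; points are arrays, and bars are the group mean ± SD. Ddx18 is lowest in control fasted and Heatr1 higher in control refed than in control fasted rats, Gnl3 and Wdr43 are highest in cafeteria fasted rats, and Dkc1 is higher in control refed rats than in most cafeteria rats.

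Between refed and fed cafeteria rats limma called none of the 31 genes (0% of all genes were called). An unadjusted p under 0.05 was found for 0 of 31, against 1036 of all 24249 genes. The smallest p were those of Nob1, an endonuclease that completes the small subunit RNA (0.12 ± 0.058), Nle1 (0.085 ± 0.063) and Rrp9 (-0.17 ± 0.15), each with an adjusted p of 1.00. The median was 0.015 with 18 above 0 (50.6% of all genes), and 0.14 with 30 above 0 under median centring. There 69% of all genes were above 0, with a median of 0.064, and 28 of the 31 lay above it.

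The diets were compared within each feeding state and over the mean of the 3. None of the 31 genes was called in any of these. The share of all genes called was 0.00412% in fed, 0.85% in fasted and 0.223% in refed rats. It was 3.24% over the mean of the 3 states. In the same order, 4, 1, 3 and 5 of the 31 genes had an unadjusted p under 0.05. Of all 24249 genes, 1100, 3585, 1938 and 3688 did. Dkc1, the pseudouridine synthase dyskerin, came nearest over the mean. Its difference was -0.18 ± 0.050 (adjusted p = 0.051). In control refed rats it was 0.07, 0.11, -0.05, 0.14 and 0.11, and in cafeteria refed rats -0.05, -0.11, -0.38, -0.16 and -0.55. The groups overlapped at about -0.05, and the difference there was -0.32 ± 0.086 (adjusted p = 0.12). It was called over the mean in 9 of the 29 fits that left out 1 array (adjusted p 0.024 to 0.10) and with the platelet covariate (-0.21, adjusted p = 0.011).

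Polr1a differed the other way, by 0.11 ± 0.036 over the mean (adjusted p = 0.094), and Nhp2, a partner of dyskerin, by -0.11 ± 0.049 (adjusted p = 0.30), a direction that median centring turned to 0.00084. The medians were 0.031 in fed rats (20 of 31 above 0, against 54.3% of all genes), 0.022 in fasted rats (18 of 31, against 54.8%) and -0.0015 over the mean (14 of 31, against 55.4%). The last became 0.098 with 28 above 0 under median centring, where 67.5% of all genes were above 0. In fed rats the smallest p were those of Polr1a (0.17 ± 0.065), Ebna1bp2 (0.18 ± 0.083) and Heatr1 (0.14 ± 0.065), each with an adjusted p of 1.00. In fasted rats they were those of Polr1a (0.14 ± 0.062, adjusted p = 0.28), Rrp1b (0.11 ± 0.067, adjusted p = 0.47) and Dkc1 (-0.14 ± 0.086, adjusted p = 0.47). In refed rats Nop56 differed by -0.18 ± 0.058 (adjusted p = 0.25) and Rrs1, a large subunit factor, by -0.28 ± 0.11 (adjusted p = 0.40). In refed rats 28 of the 31 genes were lower in cafeteria rats, with a median of -0.069 (53% of all genes were above 0), but median centring turned this to 29 above 0 with a median of 0.17, Nop56 included at 0.096. That setting moved the median of all genes to 0.10, with 72.5% above 0, and relative to it the 31 genes had a median of 0.071. The deposited value table gave a median of -0.12, or -0.083 relative to its own median of all genes. No marker of the other cell types listed was called in this comparison, but several lists lay on one side of 0. All 11 erythroid markers were above 0 in cafeteria refed rats (median 0.83), with an array mean from -1.40 to 0.38 in control and from -0.69 to 0.92 in cafeteria refed rats. All 10 NK and cytotoxic markers were below 0 (median -0.47), with an array mean from -0.31 to 0.73 in control and from -1.31 to 0.15 in cafeteria refed rats, and so were all 7 plasma cell markers (median -0.30). Of 15 T cell markers 3 were above 0 (median -0.071). Platelet (14 of 18, median 0.28), neutrophil (8 of 10, 0.23), B cell (8 of 9, 0.16) and monocyte markers (8 of 12, 0.063) lay mostly above 0. With the platelet covariate 5 of the 31 genes were above 0, with a median of -0.047 (52.4% of all genes). The part of these cells in the lower values of the 31 genes was not tested beyond that covariate.

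**Figure D4:**
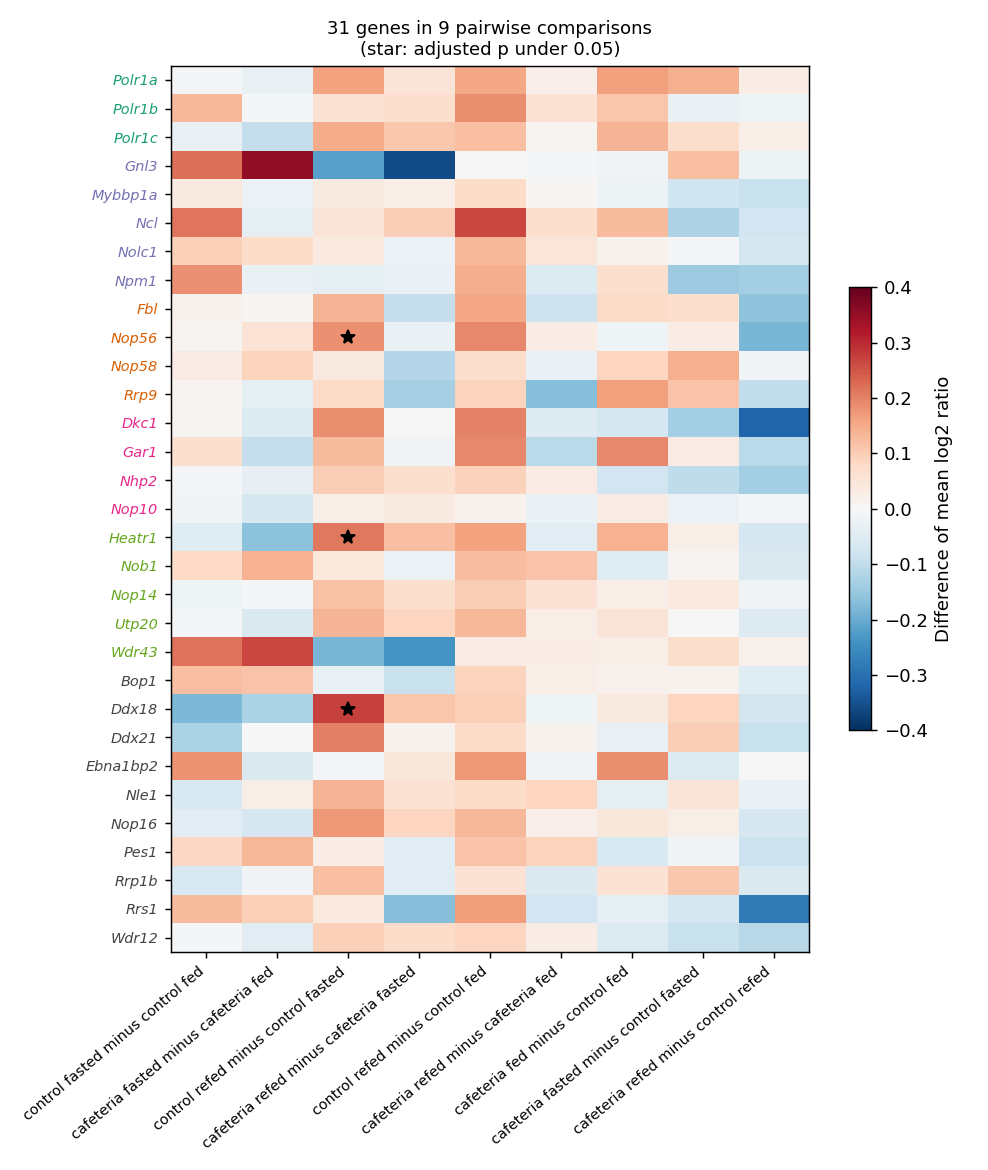
Differences of group means of the log2 ratio for the 31 genes (rows, with names coloured by role) in 9 pairwise comparisons (columns); red is higher and blue lower in the first group named, and stars mark the 3 called genes. The column of control refed minus control fed rats has no value below 0, and the only stars are in control refed minus control fasted rats.

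The genes did not vary as one unit from rat to rat. Over deviations from the group means on 29 arrays, the 465 pairs had a median r of 0.13, from -0.58 to 0.79, and 38 pairs exceeded 0.5. These points share the reference pool and each array's normalisation. Nhp2 and Mybbp1a were the closest pair (0.79). Bop1 and Pes1, which with Wdr12 form one complex of large subunit assembly, correlated at 0.75, and Nop14 and Rrs1 at 0.74. Polr1a had the lowest mean correlation with the other genes (-0.061).

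Other genes of the pathway were taken from lists that leave out the 34. Of 125 measured factors of polymerase I transcription, subunit processing, snoRNPs and the RNA exosome, 12 were called higher and 1 lower in control refed than in control fasted rats, against 3.3% and 6% of all genes, and their median was 0.070 with 87 above 0. Among them were Polr1g (0.23 ± 0.069), a subunit of RNA polymerase I, Bms1 (0.39 ± 0.076) and Utp18 (0.17 ± 0.049) of small subunit processing, and Urb1 (0.30 ± 0.052), Ppan (0.26 ± 0.071), Nol9 (0.25 ± 0.076) and Rpf1 (0.23 ± 0.067) of large subunit processing. Trmt112 (0.26 ± 0.052) and Ruvbl1 (0.20 ± 0.044) rose among the snoRNP and modification factors, though the other Ruvbl1 probe read 0.067. The exosome genes Exosc3 (0.32 ± 0.094) and Mtrex (0.28 ± 0.064) rose as well, though 1 of 4 Mtrex probes read -0.19. The kinase Riok3 fell by 0.60 ± 0.17. Adjusted p lay between 0.0012 and 0.034 for these. With the platelet covariate, 4 of all 24249 genes were called in this comparison, so most of these calls were lost there. As the platelet means of these groups do not overlap, that loss does not show what part platelet content had. Under median centring 0.103% of all genes were called higher and 3.23% lower.

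Of 62 ribosomal protein genes 57 were above 0 in this comparison, with a median of 0.18 and 1 call (Rpl26, 0.31 ± 0.094, adjusted p = 0.033), but median centring left 7 above 0 with a median of -0.096, and the platelet covariate 39 with a median of 0.043 and no call (0). Myc itself was not called in any comparison. Its smallest p was on fasting in cafeteria rats (0.36 ± 0.14, adjusted p = 0.31). The MYC antagonists Mxd1 (-0.33 ± 0.11, adjusted p = 0.049) and Mxd4 (-0.26 ± 0.081, adjusted p = 0.041) fell in control refed against control fasted rats, with 1 of 3 Mxd4 probes at 0.10. Odc1, ornithine decarboxylase and a MYC target, fell by 1.17 ± 0.23 (adjusted p = 0.0022). Of 20 MYC-linked growth genes it was 1 of 2 called lower, beside Ldha (-0.52 ± 0.15), and Eif4a1 was called higher (0.33 ± 0.079, with its other 4 probes from -0.034 to 0.15). Eif4ebp1, an inhibitor of translation, fell by 0.57 ± 0.15. These calls are from the fit without a covariate. With the platelet covariate, which is hard to separate from refeeding here, 0.0165% of all genes were called between control refed and control fasted rats.

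Over the mean of the feeding states, 8 of the 125 factors were called lower and 1 higher in cafeteria than in control rats, against 2.44% and 0.796% of all genes. Ubtf, the transcription factor of RNA polymerase I, fell by 0.58 ± 0.091 (adjusted p = 0.00028) on its brightest probe, while its other probe read -0.033. Nol11 of the small subunit processome fell by 0.38 ± 0.066 (adjusted p = 0.00070). Nifk fell by 0.43 ± 0.093 and Surf6 by 0.38 ± 0.092 on their brightest probes, and their other probes read 0.025 and 0.052. Gnl3l fell by 0.30 ± 0.070 and Polr1f by 0.28 ± 0.061, the latter with a second probe at -0.11. Ddx24 fell by 0.18 ± 0.052 and the exonuclease Xrn2 by 0.23 ± 0.057, with their other probes at -0.052 or nearer 0. Pelp1, the 1 called higher, rose by 0.10 ± 0.026. Outside the 125, Pa2g4, a growth regulator of the nucleolus, fell by 0.67 ± 0.096. In cafeteria rats Snu13, a box C/D protein, rose on fasting by 0.27 ± 0.061 (adjusted p = 0.034), the only one of the 125 called there.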

How the data were processed

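RNA of 29 rats was hybridised in Cy5 beside a pooled Cy3 reference, with no dye swap, per the labels. The authors' scanner files, per the file headers, hold mean and local background intensity of both colours from Agilent Feature Extraction 9.5.1.1 and a log10 ratio. The authors' deposited value table holds log2 values (slope against log2 of the scanner's Cy5 intensity 0.974 to 1.02), and its normalisation between arrays is not given in the sources used here. Here, with limma 3.58.1 in R 4.3.3, background was corrected by normexp (offset 50) and log2 ratios were normalised within arrays by loess. Outlier spots (526 probe and array values) were left out, and the brightest probe stood for each gene. Of 41012 probes 28242 were kept, which gave 24249 genes. One fit (lmFit, eBayes) over 6 groups served 12 comparisons, with 2-sided p adjusted over all genes. The arrays limit the precision, at 4 or 5 rats per group. Correlations between arrays ran from -0.255 to 0.585 over all probes, and no arrays were duplicates. RefSeq tables of GRCr8 gave names and promoters. The rule named every one of the 31 genes, gave full values for called genes and for the 3 with the smallest p where fewer than 3 were called, and took up to 4 called genes per other list. The members and lists were chosen with earlier results of these data known. Tables were read with Python 3 packages and plots drawn with matplotlib.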

Additional observations from a re-analysis of the deposited data

Results flagged for a closer look

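Single arrays stood apart from the others of their group in 8 of 96 groups of values checked (chance flags about 1 in 20). The mean of the 31 genes was -0.032 in control refed rat 12, whose nearest neighbour was at 0.053. Nle1 read 0.013 in the same rat, with the next at 0.18. Gnl3 was 0.21 in cafeteria fed rat 1, against at most -0.0081 in the others, and Polr1a was -0.18 in that rat, against -0.043 or above. Polr1a was 0.13 in control refed rat 9, with the next at -0.087. Ncl was 0.28 in control fasted rat 5, with the next at -0.19. Rrp9 was 0.47 in control refed rat 15, with the next at -0.047, and 0.35 in cafeteria refed rat 12, with the next at -0.20. No interaction between diet and feeding state was called for any of the 31 genes.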

How the results depend on the processing

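With the ratios centred on each array's median in place of loess, none (0) of the 31 genes was called between control refed and control fasted rats (0.103% of all genes were called higher and 3.23% lower), and the median difference there was 0.0082. The median became 0.021 between control refed and fed, 0.12 between cafeteria refed and fasted, and 0.14 between cafeteria refed and fed rats. It became 0.070 for fasting in control and 0.028 in cafeteria rats, 0.17 between the diets in refed rats, 0.098 over the mean of the states and 0.12 for the interaction with refeeding. That setting reversed 4 values, to 0.043 for Ddx18 and 0.018 for Rrp1b (interaction with refeeding), 0.00084 for Nhp2 (diet, mean of states) and 0.096 for Nop56 (diet, refed rats).

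With Cy5 alone, 1 gene was called between control refed and fasted rats (median 0.16). It was Nolc1, called higher, and none of Ddx18, Heatr1 and Nop56. Of all genes, 4.92% were called higher there and 9.79% in either direction. Dkc1 was the 1 called between the diets in refed rats, lower, as were 0.412% of all genes. Over the mean of states it was again the 1 called, lower, as were 2.39% of all genes. The authors' deposited value table called 12 between control refed and fasted rats, all higher, where 17.2% of all its genes were called higher, with a median of 0.25 (0.10 relative to its median of all genes, 0.15). Its medians were 0.27 between control refed and fed, -0.050 between cafeteria refed and fed, 0.18, 0.14 and -0.12 between the diets in fed, fasted and refed rats, 0.079 over the mean and -0.25 (-0.245) for the interaction with refeeding. Relative to its medians of all genes these were, in the same order, 0.14, -0.0059, 0.052, 0.041, -0.083, 0.015 and -0.10.

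The platelet covariate left 0 called between control refed and fasted rats (median 0.036), groups whose platelet means do not overlap, so covariate and refeeding are hard to separate there. It called 1 gene on fasting and 1 on refeeding in cafeteria rats, where 1.06% and 1.26% of all genes were called. This was Gnl3 in both, at 0.38 and -0.45 (adjusted p = 0.035 and 0.017). Over the mean of the diets the covariate fit called 2, Dkc1 and Polr1a, where 4.59% of all genes were called. The median was 0.056 between control refed and fed rats and -0.023 for the interaction with refeeding. Array weights called 7 between control refed and fasted rats, all higher (5.61% of all genes were), 2 between control refed and fed, both higher (1.07%), 1 on fasting in cafeteria rats (0.594% were called), 1 between the diets in refed rats (0.672%) and 2 over the mean (3.74%). Probes above background on all arrays, and the mean of all probes, each called 1 over the mean of the diets (Dkc1, lower). Of all genes, these fits called 3.49% and 2.66% lower. The 16 genes found by the listed or stated older symbol, an alternative chosen after seeing the data, had a median of 0.046 between control refed and fasted rats.

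Leaving out 1 array gave 1 to 4 calls between control refed and fasted rats, 0 to 1 between the diets in refed rats (Dkc1 without cafeteria refed rat 3) and 0 to 2 over the mean of the diets. The slide block called 3 and the extraction run block 4 between control refed and fasted rats, all higher. Of all genes, these fits called 2.32% and 2.97% higher, and 8.27% and 9.11% in either direction. With the replicate block, the diet comparisons and interactions called 0, as without it, and the median was -0.069 between the diets in refed rats. Rats of the same number did not deviate together (2 of 14 pairs above 0.1, from -0.15 to 0.21), so the numbers were not taken as pairs. The causes of these shifts were not tested. The number of arrays limits what could be called.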
